A study of Mus musculus with 16 samples.

Results

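The Tcf7l2 locus of mouse fat cells was examined as a region of dense binding by C/EBPα and PPARγ. The region is a window of 270 kb on chromosome 19, chr19:55780000-56050000 in the mouse genome build mm9. Every listed peak whose centre lay in that window was taken, which gave 60 of the 61107 peaks of both lists, namely 35 of 30519 C/EBPα peaks and 25 of 30588 PPARγ peaks. The locus was chosen by the number of its C/EBPα peaks, so that number, and the peak scores behind it, are described here and not tested.

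The data come from chromatin immunoprecipitation followed by sequencing in 3T3-L1 adipocytes, a cloned mouse fibroblast line differentiated in culture into fat cells. One arm received 1 µM rosiglitazone in 0.1% DMSO and the other 0.1% DMSO alone, both for 1 h on day 7 of differentiation. Each antibody has 1 column of values per treatment in the peak lists, so a difference between treatments has no replicate check. The labels give 2 PPARγ samples per treatment and 1 each for C/EBPα, MED1 and CBP, and the PPARγ columns name no replicate. Samples of RNA polymerase II and of input are not used here.

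Tcf7l2 encodes a transcription factor of the TCF/LEF family, which binds DNA through an HMG box and recruits β-catenin when Wnt signalling is active. Wnt signalling is known to hold back fat cell differentiation. PPARγ, a nuclear receptor and the target of rosiglitazone, and C/EBPα, a leucine zipper factor, together drive that differentiation. MED1 is the Mediator subunit that contacts ligand-bound nuclear receptors, and CBP acetylates histones at active enhancers. In RefSeq's annotation of a later build, GRCm38.p6, the nearest protein-coding neighbours of Tcf7l2 are Vti1a and Habp2.

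RefSeq lists 2 separate start windows for Tcf7l2, and the 250 bases before each start are shown because they are the gene's own promoters in a region otherwise described by its peaks. They lie at chr19:55741560-55741809 and chr19:55895071-55895320 on the plus strand of GRCm38.p6. These positions cannot be set against the mm9 positions of the peaks, so which peak lies nearest to a start was not determined.
Tcf7l2 start 1: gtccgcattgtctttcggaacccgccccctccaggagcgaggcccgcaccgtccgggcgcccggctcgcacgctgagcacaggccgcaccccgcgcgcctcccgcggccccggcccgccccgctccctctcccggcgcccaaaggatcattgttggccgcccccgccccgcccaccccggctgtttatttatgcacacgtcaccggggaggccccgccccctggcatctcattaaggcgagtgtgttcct
Tcf7l2 start 2: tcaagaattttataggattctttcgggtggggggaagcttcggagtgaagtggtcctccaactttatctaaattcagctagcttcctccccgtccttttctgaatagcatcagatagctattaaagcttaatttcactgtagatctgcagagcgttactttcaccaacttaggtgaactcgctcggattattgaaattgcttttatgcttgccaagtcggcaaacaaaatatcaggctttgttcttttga
The sequence before start 1 is rich in G and C, at 72.8% of its bases, and that before start 2 has 40.8%. On both strands of the 300 bases around each start, 3 motifs were searched, and any match would be in capitals. The C/EBP motif TTGCNNAA, the PPAR core motif AGGTCA and the TCF/LEF motif CTTTGAT had no match in either window. They occur in 10.8%, 16.3% and 3.73% of 32851 RefSeq promoter windows of the same length.

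Positions within the locus are given below as the distance in kb from the start of the window to the centre of a peak. Values are in the deposited normalised units, so 1 sequenced tag counts for a different amount in each library. It was worth 0.831 units with rosiglitazone and 0.879 with DMSO for PPARγ, and 1.27 and 2.21 units for C/EBPα. For MED1 it was worth 7.65 units with rosiglitazone and 3.49 with DMSO, and for CBP 6.06 and 2.21 units, so coactivator values with rosiglitazone rest on fewer tags. Ratios are rosiglitazone over DMSO, and the range in brackets after a ratio is the exact 95% binomial interval of the tags. Each factor has 1 column per treatment, so these intervals leave out how cultures vary and cover counting error only. Tags carry no molecular identifiers, so copies of 1 fragment cannot be told from separate fragments, and the intervals may be too narrow. In bulk chromatin, occupancy of more cells and longer occupancy in each cell cannot be told apart.

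C/EBPα peaks were packed most closely in the middle of the window. When neighbours with centres at most 10 kb apart were joined, the largest cluster of the C/EBPα list lay here, with 18 peaks between 74.6 and 146.3 kb at chr19:55854456-55926370. The next cluster by size held 13 peaks. With a joining distance of 5 kb the locus again held the largest cluster, with 8 peaks between 97.8 and 116.1 kb, while at 20 kb its 26 peaks came second to a cluster of 39. The median distance between neighbouring C/EBPα members was 5.10 kb, against 22.3 kb over the whole list.

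**Figure D1:**
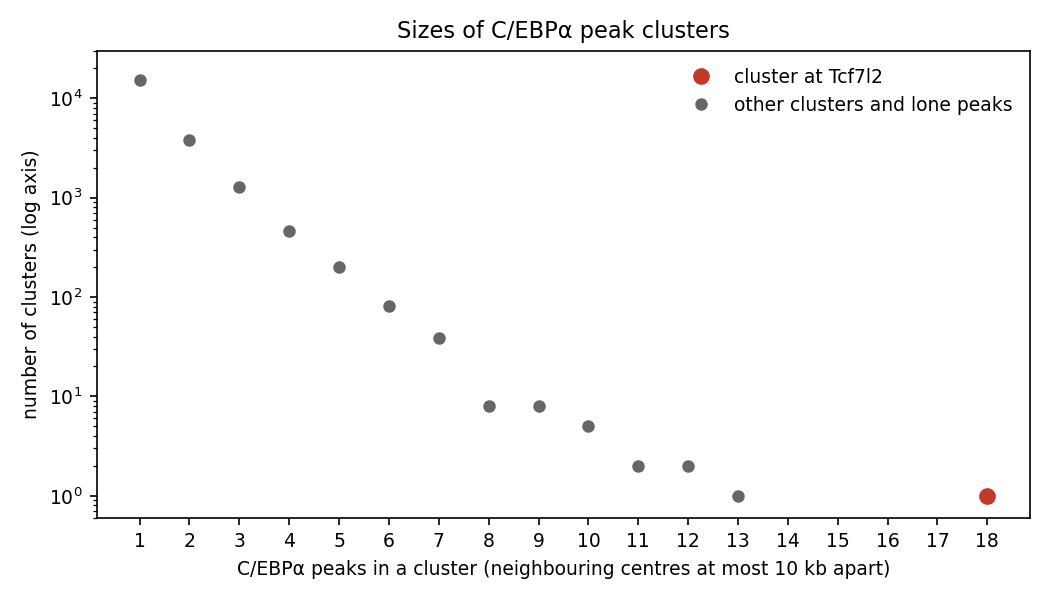
Number of C/EBPα clusters (log axis) by the number of peaks in a cluster, with the Tcf7l2 cluster in red and all others in grey. The Tcf7l2 cluster holds 18 peaks, and 15196 peaks of the list stand alone.

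The window as a whole was dense in both factors. For scale, each chromosome was cut into stretches of 270 kb on a fixed grid, which can split a dense locus. The window was instead placed around a locus chosen for its C/EBPα peaks and is not 1 of these stretches. The counts are therefore a description, and rarity was not tested. Among 5976 stretches that held a C/EBPα peak, the median number of C/EBPα peaks was 4, and 1 stretch held at least the 35 found here. For PPARγ, 33 of 5979 such stretches held at least 25 peaks. The first 90 kb of the window held 9 C/EBPα and 10 PPARγ peaks, the next 90 kb 18 and 11, and the last 90 kb 8 and 4. PPARγ members formed their largest cluster, of 10 peaks, at chr19:55854508-55886593.

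Beyond the window the lists were sparse. The nearest C/EBPα peaks outside it lay 111 kb before its start, with a score of 10.5, and 35.4 kb after its end, also with a score of 10.5. The next ones outward lay 145 kb before, with a score of 64.6, and 129.9 kb after, with 15.3. For PPARγ the nearest lay 48.1 kb before, with a score of 18.8, and 159 kb after, with 19.7, and the next 101 kb before, with 9.0, and 160.2 kb after, with 39.7. Just inside, the outermost C/EBPα members at 23.3 and 263.9 kb had scores of 25.8 and 14.5, and the outermost PPARγ members at 38.0 and 243.9 kb had 20.9 and 13.7.

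Members ran from rank 1015 to rank 27432 by score in the C/EBPα list and from rank 618 to rank 25754 in the PPARγ list. The deposited C/EBPα scores had a median of 19.4 in the locus and 15.3 over the whole list. The highest was 87.2 and the lowest 9.7, at 187.5 kb. PPARγ scores had a median of 14.5, against 11.5 over the list, with a highest value of 71.8 and a lowest of 8.1 at 74.6 and 229.1 kb.

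The C/EBPα and PPARγ peaks coincided at 13 sites, where they had at least 1 bp in common. That was 37.1% of the C/EBPα members, against 36.2% of all C/EBPα peaks, and 52.0% of the PPARγ members, against 36.1% of all PPARγ peaks. The C/EBPα share was thus near its background. The PPARγ share is given as a description only. The locus was chosen by its number of C/EBPα peaks, so a PPARγ peak there has more of them to overlap. Whether the PPARγ share differs from that of the list was not tested. Of the 8 C/EBPα members in the last 90 kb, 1 was shared. The remaining members were 22 C/EBPα peaks and 12 PPARγ peaks without a partner. Tags of a shared site are counted in both lists, so the 2 lists are not independent there.

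The member of highest score in each list was the shared site at 132.5 kb, with the C/EBPα peak at chr19:55912361-55912591 and the PPARγ peak at chr19:55912410-55912596. C/EBPα signal was 76.4 units with rosiglitazone and 110.4 with DMSO, a ratio of 0.692 (0.468 to 1.03). PPARγ signal in the PPARγ peak was 66.5 and 77.4 units, a ratio of 0.859 (0.627 to 1.18). Neither factor differed beyond counting error. CBP in the PPARγ peak was 115.2 units with rosiglitazone and 88.4 with DMSO, and MED1 was 38.3 and 31.5 units.

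The other strong shared sites held more PPARγ with rosiglitazone. At 79.7 kb, chr19:55859542-55859772, C/EBPα was 81.5 units with rosiglitazone and 59.6 with DMSO, a ratio of 1.37 (0.859 to 2.23). PPARγ in the partner peak chr19:55859607-55859793 was 69.8 and 15.8 units, a ratio of 4.41 (2.63 to 7.80). At 98.4 kb, chr19:55878321-55878551, C/EBPα was 90.4 and 50.8 units, a ratio of 1.78 (1.10 to 2.99). PPARγ there was 31.6 units with rosiglitazone and 11.4 with DMSO, a ratio of 2.76 (1.44 to 5.65). At both sites the rosiglitazone value was the higher for each factor, and for C/EBPα at 79.7 kb the interval includes 1.

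The weaker shared sites in order of C/EBPα score showed no difference beyond counting error in C/EBPα. At 97.8 kb, chr19:55877670-55877900, C/EBPα was 42.0 units with rosiglitazone and 24.3 with DMSO, a ratio of 1.73 (0.853 to 3.80). At 75.9 kb it was 34.4 and 33.1 units, and at 74.6 kb 26.8 and 22.1 units. At 38.8 kb, chr19:55818718-55818948, it was 20.4 and 30.9 units, a ratio of 0.659 (0.301 to 1.46). PPARγ in the partner peak at 38.8 kb was 30.8 units with rosiglitazone and 21.1 with DMSO, the highest of these 4 sites, where C/EBPα with rosiglitazone was the lowest. PPARγ was 19.1 and 9.67 units in the partner of the 97.8 kb peak, 10.8 and 14.1 units at 75.9 kb, and 10.8 and 5.28 units at 74.6 kb.

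Summed over the 35 members, C/EBPα signal was higher with rosiglitazone. The ratio was 1.30 (1.14 to 1.49), from 738 and 327 tags, while the rest of the C/EBPα list had 1.01 (1.01 to 1.02). The locus was chosen by its C/EBPα peaks, which rest on C/EBPα tags, and some members, such as those at 85.4 and 106.9 kb with 13 and 12 tags with rosiglitazone and 1 tag each with DMSO, have nearly all their C/EBPα tags in the rosiglitazone library. The C/EBPα ratios at C/EBPα members are therefore given as a description, and nothing is read from their distance to the list. C/EBPα was higher with rosiglitazone at 24 members and lower at 11. At least 2-fold higher, on the log2 scale with a pseudocount of 1 unit, were 7 of the 35 members, or 20%, against 15.9% of all C/EBPα peaks. At least 2-fold lower were 0, against 9.25%. Summed over the 25 PPARγ members, C/EBPα had a ratio of 1.13 (0.940 to 1.37), an interval that includes 1. The rest of the PPARγ list had 0.984, within that interval. Without the PPARγ member with the most C/EBPα tags the ratio was 1.02.

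Part of the summed C/EBPα ratio at the C/EBPα members came from a single peak at 122.3 kb, chr19:55902167-55902397, which no PPARγ peak overlapped. C/EBPα there was 75.2 units with rosiglitazone and 15.5 with DMSO, from 59 and 7 tags, a ratio of 4.86 (2.22 to 12.6). PPARγ signal in the same peak was 8.31 units from 10 tags with rosiglitazone and 0 tags with DMSO. With 3 tags put in place of 0, that is 3.15-fold higher, and the exact lower bound of the ratio is 2.12. MED1 was 23.0 and 24.5 units there. Without this peak the C/EBPα ratio of the locus was 1.22 (1.07 to 1.40).

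C/EBPα ratios are also given by whether a PPARγ peak overlapped the member. At the 22 unshared C/EBPα members the C/EBPα ratio was 1.57 (1.29 to 1.93), and at the 13 shared members 1.11 (0.934 to 1.33). The intervals overlap narrowly. The members at 85.4, 106.9 and 122.3 kb, with most of their C/EBPα tags in the rosiglitazone library, are all unshared. These values too are a description, and nothing is read from their distance to the list. The unshared peaks in the rest of the list had 1.03 (1.03 to 1.04) and the shared ones 0.994 (0.988 to 0.999). Without the peak at 122.3 kb the unshared members had 1.39 (1.13 to 1.72). PPARγ signal at the unshared C/EBPα members had a ratio of 1.05 (0.804 to 1.36), against 1.47 (1.46 to 1.48) in the rest of the list.

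After the peak at 122.3 kb, the highest C/EBPα ratio among the 22 members with at least 20 C/EBPα tags was at 116.1 kb, chr19:55896032-55896262. C/EBPα was 22.9 units with rosiglitazone and 8.83 with DMSO there, a ratio of 2.60 (0.855 to 10.5). The lowest was at 140.5 kb, chr19:55920433-55920663, with 15.3 and 24.3 units, a ratio of 0.629 (0.254 to 1.57). Second lowest was the site at 38.8 kb described above. Each of these 3 intervals includes 1, so the order among them is not resolved at this depth.

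**Figure D2:**
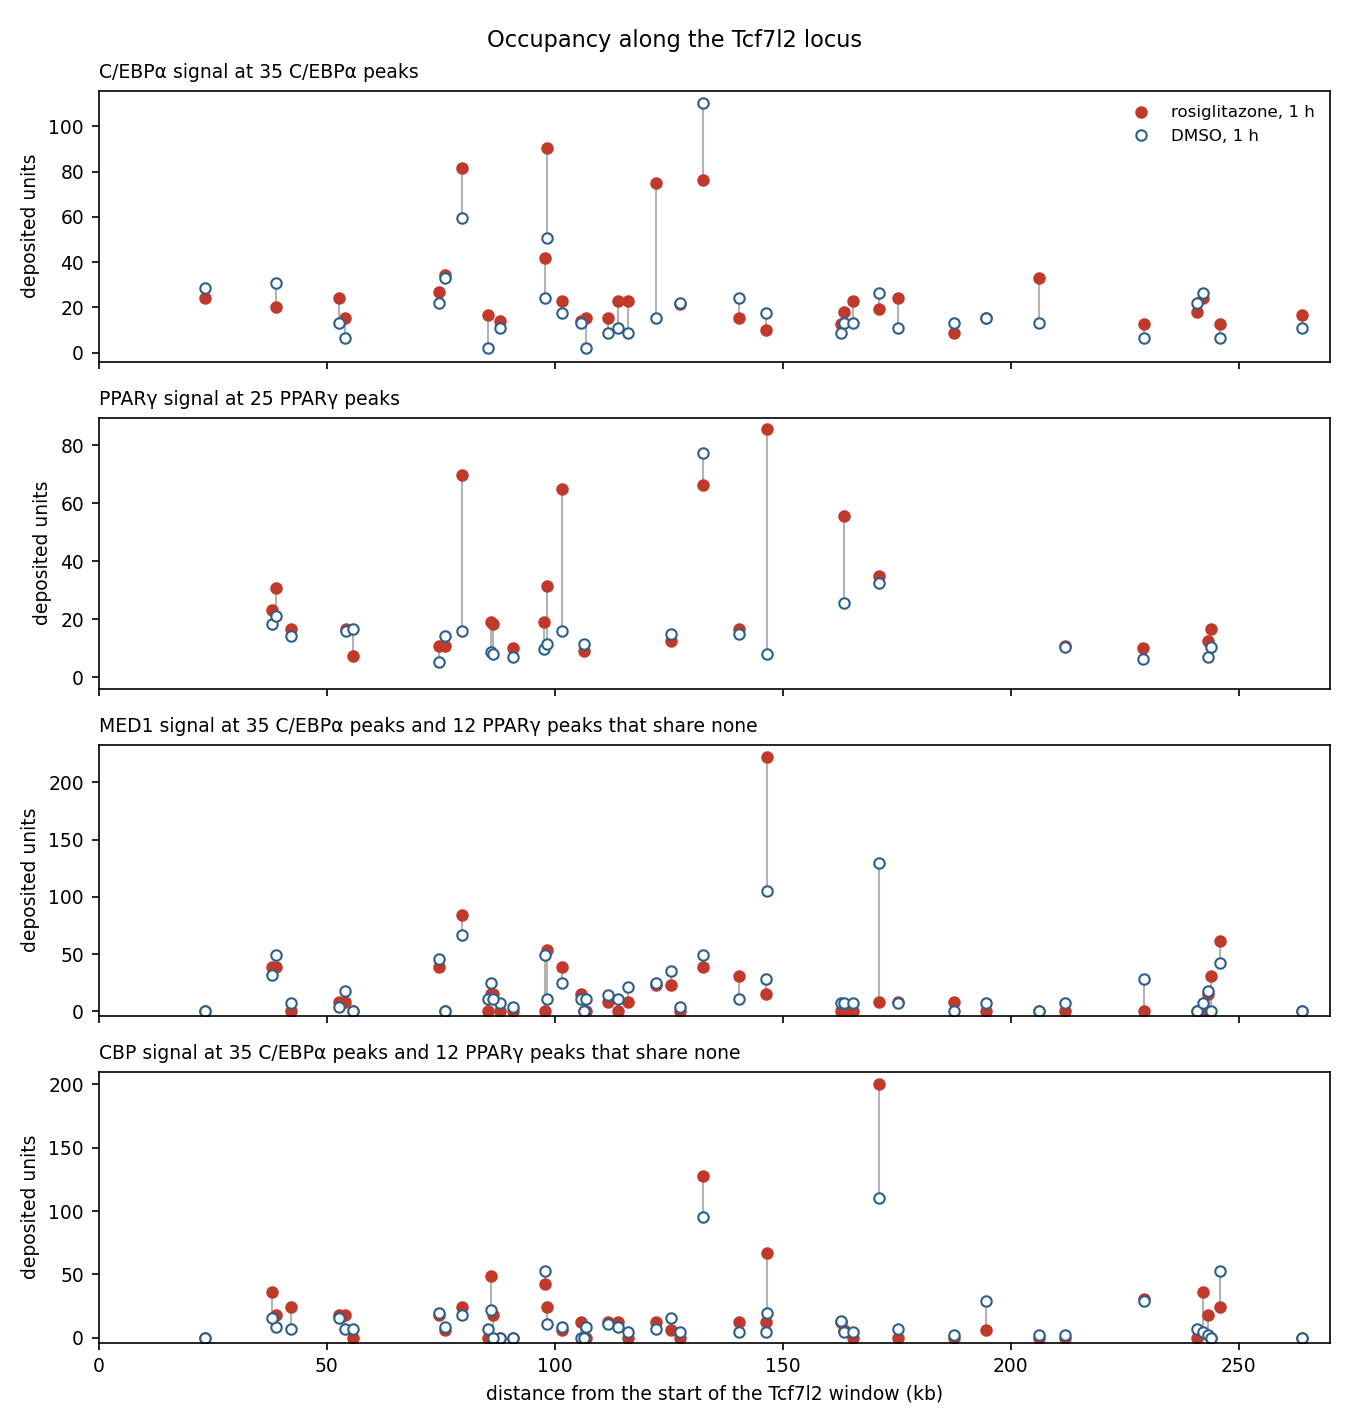
Signal of C/EBPα, PPARγ, MED1 and CBP (deposited units) by distance from the start of the Tcf7l2 window (kb), with filled red points for rosiglitazone, open blue points for DMSO and a grey line joining the values of 1 peak. C/EBPα with rosiglitazone exceeds 50 units at 79.7, 98.4, 122.3 and 132.5 kb, and the widest PPARγ gap is at 146.6 kb.

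PPARγ signal at the 25 PPARγ members was higher with rosiglitazone. Summed over them the ratio was 1.70 (1.51 to 1.91), from 818 and 456 tags, and the rest of the PPARγ list had 1.53 (1.52 to 1.53), within that interval. PPARγ peaks rest on PPARγ tags, and some have most of them in the rosiglitazone library, such as 103 and 9 tags at 146.6 kb. The PPARγ ratios at PPARγ members are therefore given as a description. PPARγ was higher with rosiglitazone at 20 members and lower at 5. At least 2-fold higher were 7 of 25, or 28.0%, against 30% of all PPARγ peaks, and at least 2-fold lower was 1, or 4%, against 4.43%. Both shares were near the background of the list. PPARγ summed over the C/EBPα members had a ratio of 1.46 (1.29 to 1.65), and the rest of the C/EBPα list had 1.59, within that interval.

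The PPARγ difference was uneven along the locus. The peak at 146.6 kb, chr19:55926480-55926666, held 85.6 units of PPARγ with rosiglitazone and 7.91 with DMSO, from 103 and 9 tags, a ratio of 10.8 (5.48 to 24.3). MED1 there was 222 units with rosiglitazone and 105 with DMSO, a ratio of 2.12 (1.23 to 3.65), and CBP was 66.7 and 19.9 units, a ratio of 3.35 (1.26 to 9.16). It was the highest MED1 value of any member with rosiglitazone. Without this peak the PPARγ ratio of the locus was 1.51 (1.34 to 1.71).

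No C/EBPα peak overlapped that site, but one lay beside it. The centres were 318 bp apart, and the C/EBPα peak at 146.3 kb, chr19:55926140-55926370, held 10.2 units of C/EBPα with rosiglitazone and 17.7 with DMSO. PPARγ in that neighbouring peak was 12.5 and 7.91 units, a ratio of 1.58 (0.646 to 4.08). The PPARγ difference was therefore seen in the PPARγ peak and was not detectable in the peak next to it.

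Among the other strong PPARγ peaks, 101.6 and 163.4 kb also had more PPARγ with rosiglitazone. At 101.6 kb, chr19:55881521-55881707, PPARγ was 64.9 units with rosiglitazone and 15.8 with DMSO, a ratio of 4.10 (2.43 to 7.27). C/EBPα in the same peak was 8.92 and 8.83 units, and in the overlapping C/EBPα peak at 101.7 kb it was 22.9 and 17.7 units. At 163.4 kb, chr19:55943277-55943463, PPARγ was 55.7 and 25.5 units, a ratio of 2.18 (1.39 to 3.50), and MED1 was 0 units with rosiglitazone and 3.49 with DMSO. MED1 at 101.6 kb was 61.2 units with rosiglitazone and 45.4 with DMSO.

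Few PPARγ members had lower PPARγ with rosiglitazone. The lowest ratio among the 23 members with at least 20 PPARγ tags was at 55.7 kb, chr19:55835614-55835800, with 7.48 units with rosiglitazone and 16.7 with DMSO, a ratio of 0.448 (0.178 to 1.04). The next was the shared site at 75.9 kb, chr19:55855758-55855944, with 10.8 and 14.1 units, a ratio of 0.768 (0.340 to 1.70). Both intervals include 1.

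**Figure D3:**
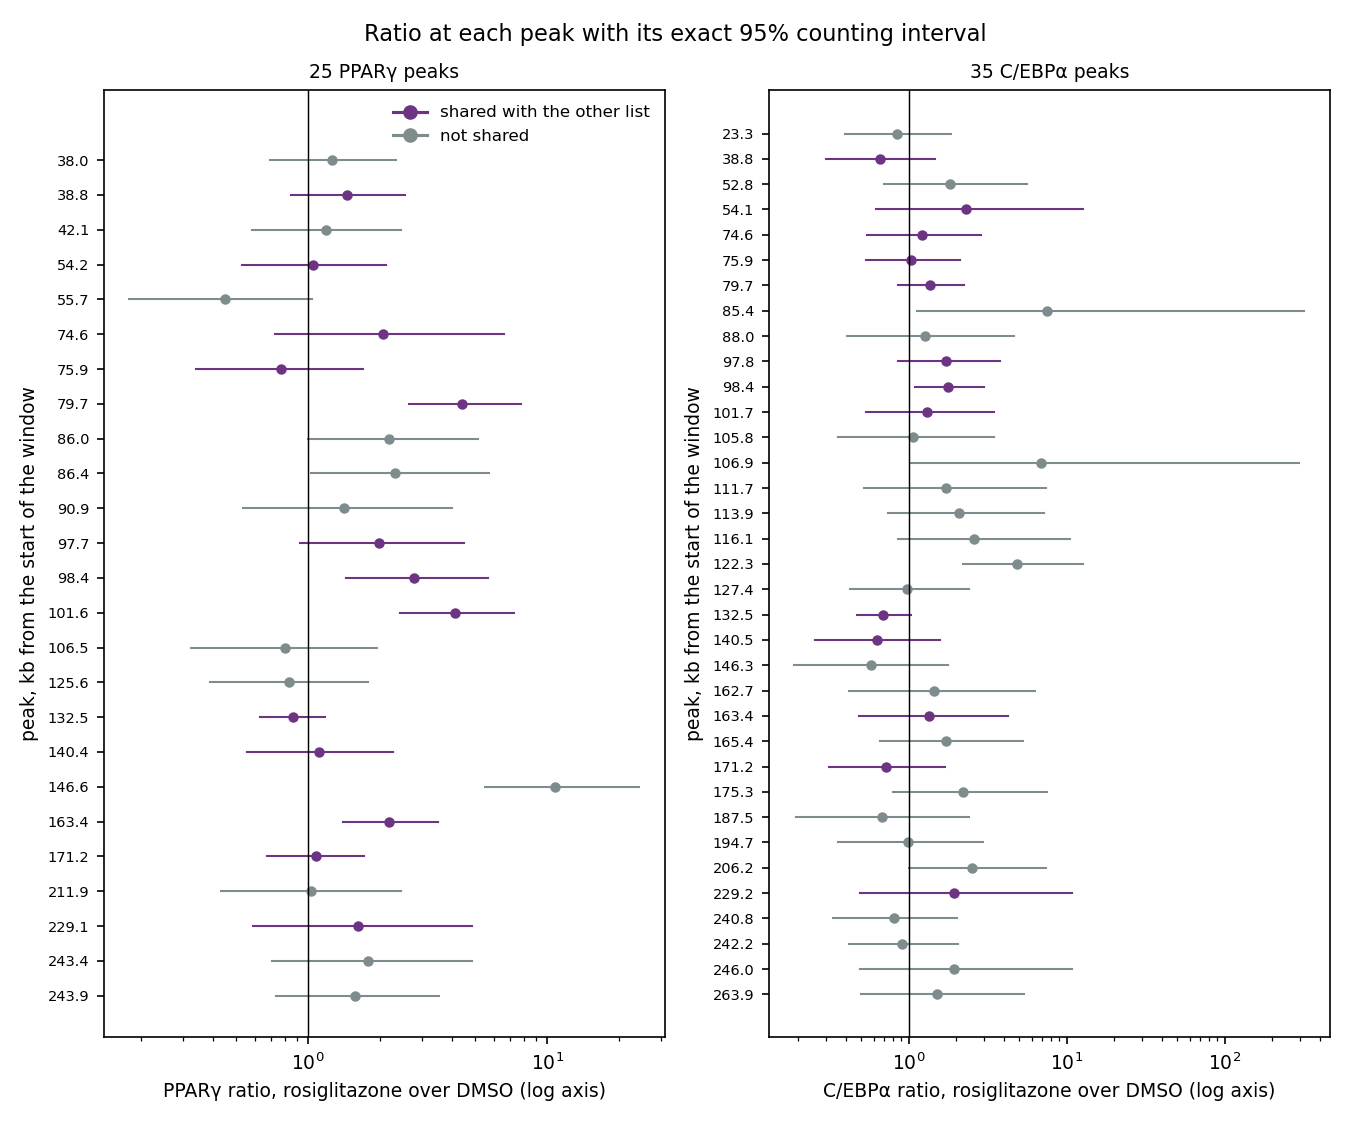
Ratio of rosiglitazone to DMSO (log axis) for PPARγ at the 25 PPARγ peaks and for C/EBPα at the 35 C/EBPα peaks, in order along the locus, with exact 95% intervals of the tags and purple for shared peaks. The PPARγ ratio reaches 10.8 at 146.6 kb and the C/EBPα ratio is 4.86 at 122.3 kb, while the higher C/EBPα ratios at 85.4 and 106.9 kb rest on 1 DMSO tag each.

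The summed MED1 ratio at the locus lay below that of each list. Summed over the C/EBPα members the MED1 ratio was 0.694 (0.515 to 0.923), from 64 and 202 tags, while the rest of the C/EBPα list had 1.43 (1.42 to 1.44). Over the PPARγ members it was 0.988 (0.759 to 1.28), from 88 and 195 tags, against 1.63 (1.62 to 1.64). The sums are led by peaks rich in MED1: with rosiglitazone the C/EBPα list had a mean of 26.1 MED1 units and a median of 7.65. The median log2 ratio per peak was -0.347 at the C/EBPα members and -0.180 at the PPARγ members, against 0 over each whole list. The median number of MED1 tags per peak was 1 with rosiglitazone and 2 with DMSO in each list. These medians of the log2 ratio thus lie near the floor, and no direction is read from them. At least 2-fold higher were 3 of the 25 PPARγ members, or 12%, against 29.8% of all PPARγ peaks. At least 2-fold lower were 7, or 28.0%, against 22.5%. With 4 PPARγ members at 20 MED1 tags or more, single peaks were poorly measured.

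The shared site at 171.2 kb had the lowest MED1 ratio of the members with 20 MED1 tags or more. In the PPARγ peak chr19:55951113-55951299 MED1 was 7.65 units with rosiglitazone, which is 1 tag, and 122.3 with DMSO, which is 35 tags, a ratio of 0.0626 (0.00154 to 0.372). In the C/EBPα peak chr19:55951088-55951318 MED1 was 7.65 and 129.3 units. CBP went the other way, with 164 units with rosiglitazone and 102 with DMSO in the PPARγ peak, a ratio of 1.61 (0.963 to 2.65), and 200.1 and 110.5 units in the C/EBPα peak, a ratio of 1.81 (1.13 to 2.87). PPARγ was 34.9 units with rosiglitazone and 32.5 with DMSO in the PPARγ peak, and C/EBPα was 19.1 and 26.5 units in the C/EBPα peak. Without this site the MED1 ratio was 0.836 (0.615 to 1.12) over the C/EBPα members and 1.19 (0.906 to 1.56) over the PPARγ members. Both intervals lie below the values of the lists, but they leave out how the ratio varies between peaks. Whether the locus differs from the lists in MED1 was not tested.

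A pair of neighbouring sites, named after their values were seen, had MED1 ratios on opposite sides of 1. At 97.8 kb the C/EBPα peak held 0 MED1 tags with rosiglitazone and 14 with DMSO. With 3 tags put in place of 0, that is 2.13-fold lower, and the exact upper bound of the ratio is 0.660. At 98.4 kb MED1 was 53.6 units with rosiglitazone and 10.5 with DMSO, from 7 and 3 tags, a ratio of 5.11 (1.17 to 30.6). The peaks are 0.651 kb apart and both are shared sites. In the binomial test of the libraries described below, the MED1 p-values adjusted over the C/EBPα list were 0.198 at 97.8 kb and 0.363 at 98.4 kb. Neither peak was called. PPARγ in the C/EBPα peaks had ratios of 2.01 (0.822 to 5.38) at 97.8 kb and 2.58 (1.40 to 5.03) at 98.4 kb.

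Among the 4 PPARγ members with at least 20 MED1 tags, the peak at 146.6 kb had the highest MED1 ratio. Between it and the 171.2 kb site lay the peak at 79.7 kb, where MED1 was 68.9 units with rosiglitazone and 48.9 with DMSO, a ratio of 1.41 (0.537 to 3.49), and the peak at 101.6 kb, with a ratio of 1.35 (0.484 to 3.51). Both are shared sites, and neither differed beyond counting error.

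CBP at the PPARγ members was higher with rosiglitazone. The summed ratio was 1.65 (1.29 to 2.09), from 113 and 188 tags, and the rest of the list had 1.38 (1.37 to 1.39), within that interval. At the C/EBPα members it was 1.21 (0.964 to 1.52), against 1.25 (1.24 to 1.26). At least 2-fold higher for CBP were 8 of the 25 PPARγ members, or 32.0%, against 23.6% of all PPARγ peaks, and at least 2-fold lower were 3, or 12%, against 25.1%. With at least 20 CBP tags required, 1 was higher and 0 lower, so most of these calls rest on few tags. Among the 4 PPARγ members with at least 20 CBP tags the ratios were 3.35 at 146.6 kb and 1.61 at 171.2 kb, then 1.30 (0.713 to 2.30) at 132.5 kb and 1.18 (0.370 to 3.26) at 97.7 kb.

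The CBP ratio was higher at the PPARγ members that share no C/EBPα peak. At the 12 unshared PPARγ members the CBP ratio was 2.41 (1.50 to 3.86), and at the 13 shared ones 1.44 (1.08 to 1.91). These intervals overlap as well. In the rest of the list the unshared peaks had 1.41 (1.39 to 1.42) and the shared ones 1.36 (1.35 to 1.38). MED1 had ratios of 1.49 (1.01 to 2.19) at the unshared and 0.713 (0.488 to 1.02) at the shared PPARγ members. Without the peak at 146.6 kb the unshared members had a MED1 ratio of 1.01 (0.544 to 1.81) and a CBP ratio of 2.14 (1.22 to 3.73).

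**Figure D4:**
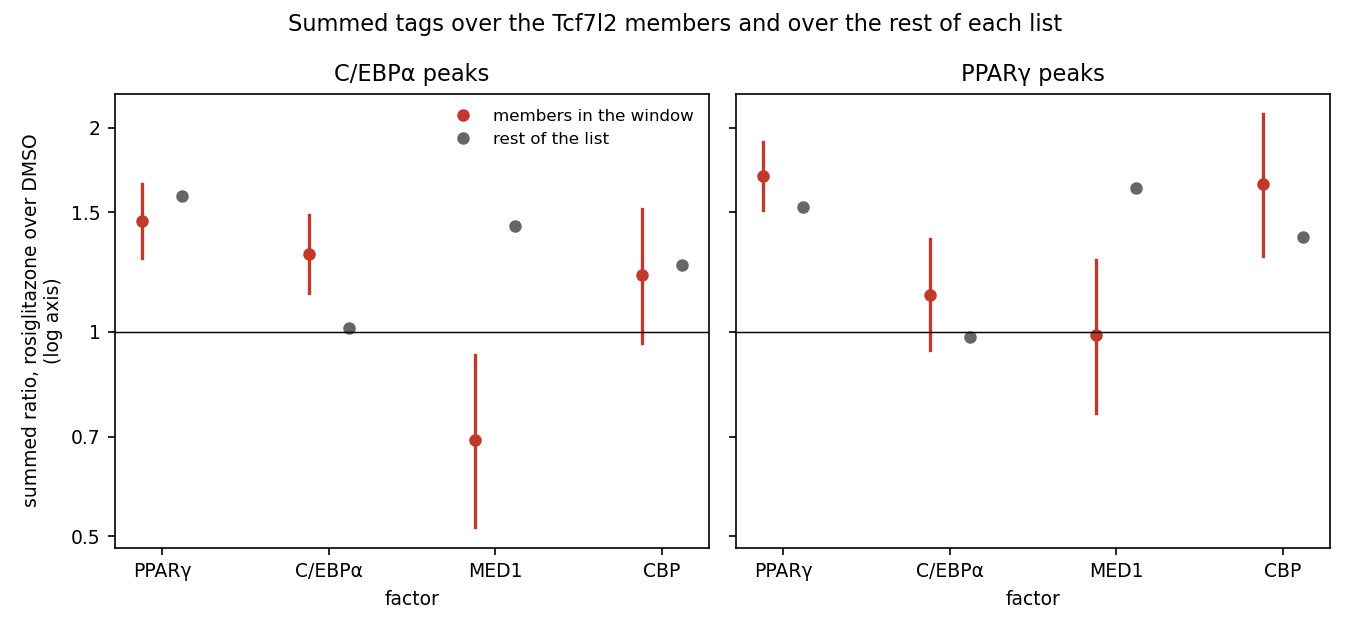
Ratio of rosiglitazone to DMSO (log axis) of summed tags for 4 factors over the Tcf7l2 members, in red, and over the rest of the list, in grey, at C/EBPα peaks and at PPARγ peaks, with exact 95% intervals of the tags. Over the C/EBPα members C/EBPα has 1.30, against 1.01 in the rest of the list, and MED1 has 0.694, against 1.43. The C/EBPα values are a description, since the locus was chosen by its C/EBPα peaks. So are the PPARγ values at PPARγ peaks, since those peaks rest on PPARγ tags.

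Each factor's pair of libraries was also set against each other by a binomial test of the tags at a peak, adjusted by Benjamini-Hochberg over the whole list and called at 0.05. It speaks of those libraries, not of the conditions. For PPARγ it called 5 of the 25 PPARγ members higher in the rosiglitazone library, at 79.7, 98.4, 101.6, 146.6 and 163.4 kb, against 20.1% of the list, and 0 lower, against 1.57%. For C/EBPα it called 1 of 35 higher, at 122.3 kb, against 1.65%, and 0 lower, against 1.25%. For MED1 at PPARγ peaks it called 0 higher, against 3.18%, and 1 lower, at 171.2 kb, against 0.304%. For CBP at PPARγ peaks it called 0 higher, against 0.418%, and 0 lower, against 0.00327%. PPARγ at PPARγ peaks and C/EBPα at C/EBPα peaks were tested on tags that the peaks themselves rest on, so those calls are a description.

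The cluster of 18 peaks was set beside the 3 next largest C/EBPα clusters. Its C/EBPα ratio was 1.36 (1.15 to 1.61), and the cluster of 13 peaks at chr19:47345000-47412496 had 1.28 (1.12 to 1.47). The clusters of 12 peaks at chr8:3211517-3260542 and chr8:109620368-109677699 had 1.28 (1.08 to 1.53) and 0.885 (0.716 to 1.10). A C/EBPα ratio above 1 was thus also listed outside Tcf7l2. All 4 clusters were picked by their number of C/EBPα peaks, so these C/EBPα ratios too are a description. For PPARγ the Tcf7l2 cluster had 1.55 (1.31 to 1.83), and the other three 3.23 (2.80 to 3.73), 0.850 (0.706 to 1.02) and 0.974 (0.798 to 1.19). For MED1 it had 0.891 (0.618 to 1.27), and the other three 2.05 (1.69 to 2.49), 0.867 (0.481 to 1.50) and 1.12 (0.761 to 1.63). The MED1 ratio of the Tcf7l2 cluster was thus not the lowest of these 4 clusters.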

How the data were processed

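The build mm9 and the tools Bowtie, HOMER, FastQC and edgeR are named, per the submitters' processing notes, with no role for each. The authors deposited, for each peak, a score, a focus ratio (a fraction, not used in any result here) and a normalised tag signal for 4 factors in each treatment. The MED1 column headed BRL, a code of rosiglitazone, was taken as the MED1 sample with that drug. With a tolerance of 0.02 steps, nearly all of the deposited signal values above 0 were whole multiples of 1 step per column, so tags were recovered. Exact Clopper-Pearson intervals of 95% were computed with scipy 1.17.1 in Python 3.11.15. The limit that a count of 0 allows was taken as 3 tags, which leaves out the counting error of the other library. The calculations were tested on simulated data. No count model across replicates could be used, since each factor has 1 column per treatment.

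The locus, its members and the comparisons were chosen with earlier results of these data known. Named peaks are the 5 of highest score in each list, up to 8 shared C/EBPα members by score, those with the 2 highest and 2 lowest ratios per factor among members with at least 20 tags, the lowest score of each list and the nearest 2 peaks outside each edge. For MED1 and CBP the ratios of PPARγ members were used. The MED1 pair at 97.8 and 98.4 kb and the C/EBPα peak at 146.3 kb were named after their values were seen. Other genes of the Wnt pathway (Tcf7, Tcf7l1, Lef1 and Ctnnb1) were not placed, because the annotation at hand is of another build.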

Additional observations from a re-analysis of the deposited data

How the results depend on the processing

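Of 78 values under alternatives, 56 kept within the limits of the main value, 21 moved and 1 reversed, and the cause was not tested beyond what each alternative changes. Division by the ratio over the whole list sets the locus against the list and no longer rosiglitazone against DMSO. Under it the PPARγ ratio at the C/EBPα members crossed 1, to 0.919, and was counted as reversed. The list value lies within the interval of the undivided ratio, so 0.919 is not told apart from 1. The MED1 ratios became 0.486 at C/EBPα and 0.608 at PPARγ members, and at PPARγ members PPARγ became 1.11 and CBP 1.20. The CBP ratio at the C/EBPα members, whose interval includes 1, also crossed 1, to 0.967 against 1.21 as deposited, and is not counted as reversed. C/EBPα ratios were 1.29 at C/EBPα members and 1.15 at PPARγ members, where the undivided ratio was 1.13 with an interval that includes 1. Peaks at or above the median score left 22 C/EBPα members, and a joining distance of 5 kb a cluster of 8. With a pseudocount of 5, the counts at PPARγ members were 4 higher and 0 lower for PPARγ and 1 lower for CBP. Centred on the median of the list, a log2 shift of 0.50, 3 were higher for PPARγ. With at least 20 tags, 4 were higher for C/EBPα, 1 higher and 1 lower for MED1, and 1 higher and 0 lower for CBP. The binomial test called 0 lower for PPARγ, 1 higher for C/EBPα, 0 higher and 1 lower for MED1, and 0 higher and 0 lower for CBP. Leaving out the member with the lowest p was added after the data were seen and changed no direction of a ratio whose interval excludes 1. No paired analysis was possible because the columns carry no replicate number, and no replicate could be left out.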

Other observations

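A lower MED1 value beside a higher CBP value, as at the 171.2 kb site, was not limited to Tcf7l2. Over the PPARγ list, 1695 peaks held at least 20 tags of both MED1 and CBP, and 225 of them, or 13.3%, had MED1 at least 2-fold lower with rosiglitazone and CBP higher. The Tcf7l2 site had a MED1 log2 ratio of -3.83, the 18th lowest of the 1695. Each coactivator has 1 library per treatment, and the list holds fewer tags of both with rosiglitazone, so the part of depth in this pattern was not tested.

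At 140.5 kb the C/EBPα and PPARγ peaks overlapped with centres 100 bp apart and gave different PPARγ values. In the C/EBPα peak, PPARγ was 20.8 units with rosiglitazone and 3.52 with DMSO, from 25 and 4 tags, a ratio of 5.91 (2.04 to 23.4). In the PPARγ peak it was 16.6 and 15.0 units, a ratio of 1.11 (0.553 to 2.26).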
